A study of Homo sapiens with 12 samples.

Results

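The genes described here are 35 genes of the unfolded protein response (UPR) and of protein folding in the endoplasmic reticulum (ER). They were taken by symbol from the deposited expression table, and all 35 were found among its 17520 genes. All 35 also passed the filter on low values, which asked for 10 units or more in 3 or more libraries and kept 13842 genes. They comprise 6 genes for stress sensors and their transcription factors, 12 for lumenal chaperones and co-chaperones and 4 for disulfide isomerases. A further 9 serve ER-associated degradation, and 4 serve the translocon, vesicle export and the ER membrane.

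Proteins that enter the ER are folded there by chaperones such as BiP, the product of HSPA5, and are given disulfide bonds by isomerases. When unfolded proteins accumulate, the sensors IRE1, PERK and ATF6 signal to the nucleus and to the translation machinery. IRE1 removes a short intron from XBP1 mRNA so that an active transcription factor is made, ATF6 is cut in the Golgi to release one, and PERK phosphorylates the initiation factor eIF2 and thereby favours translation of ATF4. The factors XBP1 and ATF6 bind ER stress elements in the promoters of chaperone and degradation genes, and proteins that fail to fold are moved back to the cytosol for destruction by the proteasome.

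The cells were HEK293E, a human embryonic kidney line. All of them were starved of serum overnight and then given 200 nM insulin for 30 h. One group received insulin alone, and the other was first treated with 250 nM Torin1, which inhibits the kinase mTOR. The 12 samples formed 4 groups of 3: poly(A) RNA as input with each treatment, and miCLIP, which maps N6-methyladenosine (m6A) by crosslinking an antibody, with each treatment. No library without insulin and none treated with an ER stressor was used here. The labels call the replicates biological without saying that they came from separate cultures, so p-values here measure only how these libraries varied, and part of that may be technical.

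The values of the 6 input libraries were normalized by the authors and rounded, and summed to between 11418114 and 12528454 normalized units. In 5 of them the low values lay on a grid that corresponds to between 7330000 and 11800000 reads. In insulin+Torin1 replicate 1 no grid was found among the steps searched, all of them above 1, and the depth was not recovered. Of 8 HEK293 markers 7 were in the table, with sums of 4403 to 4435 units under insulin alone and 10099 to 10137 after Torin1, most of it from VIM. VIM, CDH2, KRT8 and KRT18 were called higher and NEFM lower, LHX1 was not called, and PAX2, at 6 to 11 units, was not tested. Of 6 blood cell markers 5 were in the table, with sums of 151 to 168 units under insulin alone and 48 to 55 after Torin1, and PTPRC was at 0 or 1. Of 8 markers of plasma and pancreatic secretory cells 5 were in the table, summing to 146 to 190 and 340 to 388 units, nearly all from SDC1. Sums were 191 to 243 and 528 to 554 for 5 of 6 fibroblast and endothelial markers, 157 to 168 and 292 to 331 for 6 of 8 mature kidney markers, and 10 to 14 and 9 to 14 for 3 of 5 hepatocyte and keratinocyte markers. The part of these cells in the results was not tested.

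The promoters show what many of these genes share in sequence. The ER stress element (ERSE) is CCAAT and CCACG with 9 bases between them, and ERSE-II is ATTGG, any base, then CCACG. Both were searched on both strands of the RefSeq windows (build GRCh38.p14) that run from 250 bases before to 50 bases after a gene's start. Windows were at hand for 31 of the 35 genes, 39 windows in all, and for 27305 genes altogether. An exact ERSE was found in 7 of the 31 genes (22.6%), against 25 of all genes (0.0916%). ERSE-II was found in 3 of the 31 (9.68%), against 19 of all genes (0.0696%). A match of letters is not a measured binding site, and several of these promoters served to define the elements.

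The 250 bases before the start are given for the genes of XBP1, which encodes a factor that binds these elements, of the main chaperone HSPA5, of the degradation gene HERPUD1 and of HYOU1, which holds ERSE-II in 2 places. They lie at chr22:28800570-28800819 on the minus strand, chr9:125241344-125241593 on the minus strand, chr16:56931892-56932141 on the plus strand and chr11:119057206-119057455 on the minus strand. Capitals mark the elements, and each line is written 5′ to 3′ on the strand of its gene.
XBP1: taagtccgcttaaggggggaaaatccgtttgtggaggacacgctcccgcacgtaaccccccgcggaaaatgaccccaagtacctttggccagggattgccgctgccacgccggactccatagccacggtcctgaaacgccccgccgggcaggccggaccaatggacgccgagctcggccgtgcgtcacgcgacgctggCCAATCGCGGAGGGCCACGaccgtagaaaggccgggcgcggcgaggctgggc
HSPA5: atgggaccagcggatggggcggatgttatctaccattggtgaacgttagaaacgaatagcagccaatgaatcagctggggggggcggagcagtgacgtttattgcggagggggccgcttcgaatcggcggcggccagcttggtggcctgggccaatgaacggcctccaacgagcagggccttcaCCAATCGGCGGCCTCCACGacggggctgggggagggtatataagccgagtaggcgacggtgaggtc
HERPUD1: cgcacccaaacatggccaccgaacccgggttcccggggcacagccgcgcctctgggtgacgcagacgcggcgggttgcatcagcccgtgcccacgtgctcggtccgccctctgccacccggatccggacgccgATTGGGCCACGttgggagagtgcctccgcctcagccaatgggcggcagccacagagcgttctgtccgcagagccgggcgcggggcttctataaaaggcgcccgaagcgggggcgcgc
HYOU1: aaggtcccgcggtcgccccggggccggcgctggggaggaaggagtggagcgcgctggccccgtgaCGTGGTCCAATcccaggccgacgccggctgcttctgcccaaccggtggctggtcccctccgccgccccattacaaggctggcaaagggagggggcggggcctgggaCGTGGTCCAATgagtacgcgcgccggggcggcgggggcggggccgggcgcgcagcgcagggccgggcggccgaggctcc

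The other 6 genes with an element are shown with 10 bases on either side, so that the shared letters can be read side by side. HSP90B1 has 2 copies, at -194 to -176 and at -89 to -71 from the start. The stretches lie, in GRCh38.p14 and in the order of the lines, at chr12:103930206-103930244, chr12:103930311-103930349, chr19:12938374-12938412, chr5:179698768-179698806, chr22:49918544-49918582, chr2:10812843-10812881 and chr22:21642104-21642134. The PDIA6 line is on the minus strand and the others are on the plus strand, each the strand of its gene, so an element in reverse orientation reads CGTGG first.
HSP90B1 distal: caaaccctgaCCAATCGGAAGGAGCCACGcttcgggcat
HSP90B1 proximal: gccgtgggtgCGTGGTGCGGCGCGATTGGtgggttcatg
CALR: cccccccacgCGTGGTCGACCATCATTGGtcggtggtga
CANX: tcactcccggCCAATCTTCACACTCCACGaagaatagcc
CRELD2: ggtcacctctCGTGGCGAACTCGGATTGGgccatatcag
PDIA6: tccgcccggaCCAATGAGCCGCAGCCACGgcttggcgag
SDF2L1: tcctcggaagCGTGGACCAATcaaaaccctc

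**Figure D1:**
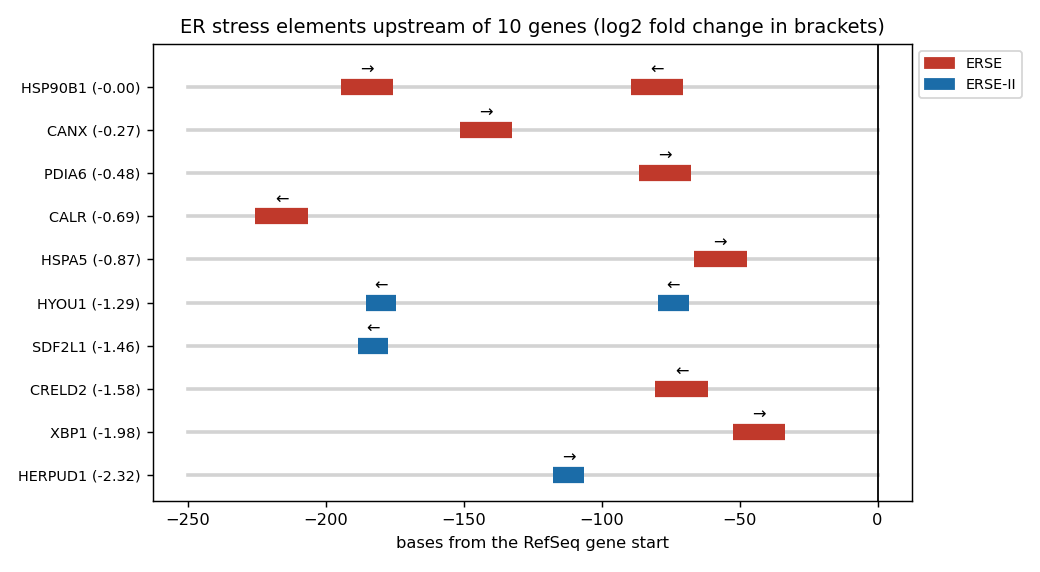
Position of exact ER stress elements in the 250 bases before the RefSeq gene start of 10 genes. The horizontal axis is the distance from the start in bases, red bars are ERSE, blue bars ERSE-II, and arrows give the orientation. Genes are ordered by the log2 fold change with Torin1, given in brackets. The elements shown lie between -225 and -34. For CANX, which has 4 windows, the first is shown, and for PDIA6 the second. These windows of CANX and PDIA6 lie inside the annotated gene bodies, so their starts are not the outermost ones.

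Most of the 35 genes were lower with Torin1. With limma at an adjusted p below 0.05, 28 were lower, 5 higher and 2 not called, where 42.5% of all tested genes were lower and 43.4% higher. A fall beyond 1.5-fold was called for 21 genes, against 22.5% of all tested genes, and a rise beyond 1.5-fold for 2, against 25.0%. The 3 Torin1 libraries lay below all 3 insulin libraries in 28 genes and above them in 5, against 42.8% and 43.5% of tested genes. The median log2 fold change of the 35 was -0.87, and of all tested genes 0.02. In bulk RNA fewer cells that carry a transcript and less of it per cell cannot be told apart. The values were normalized between libraries, so each change is relative to the other genes measured.

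**Figure D2:**
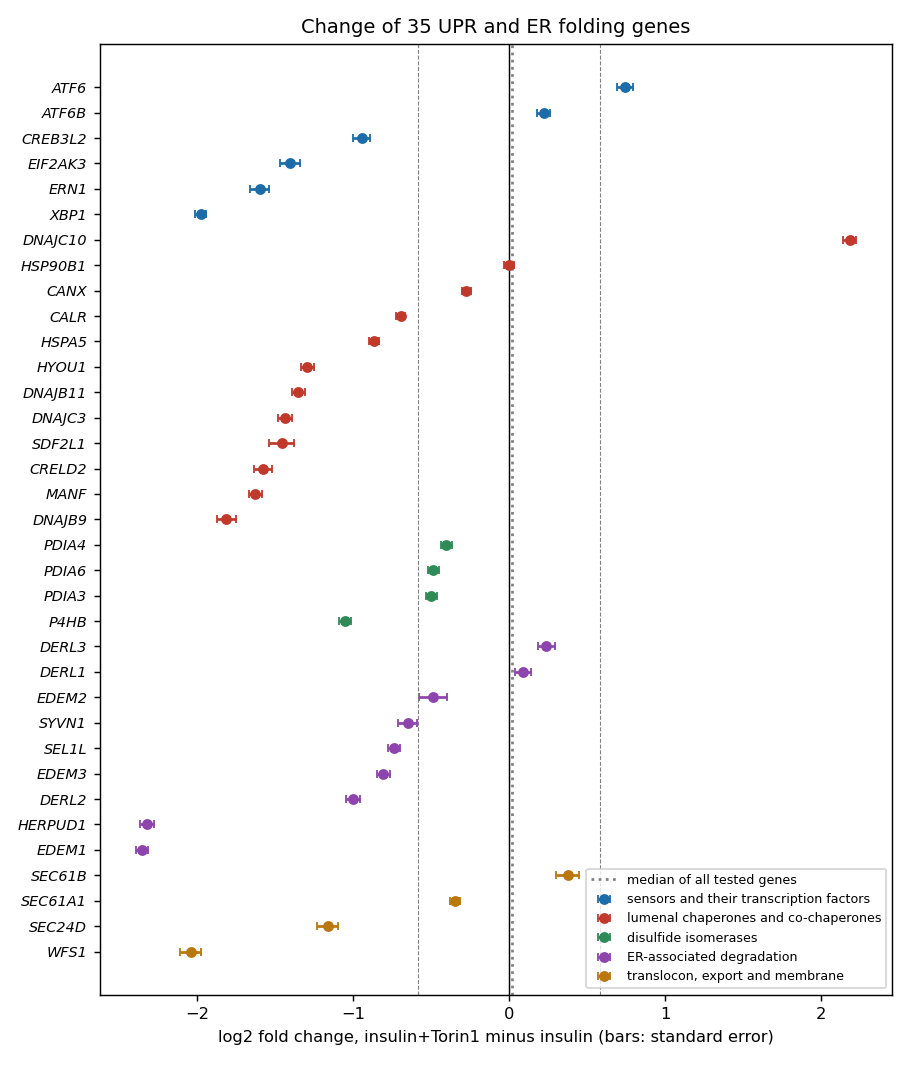
Log2 fold change (insulin+Torin1 minus insulin) of the 35 genes, with its standard error, grouped by role and ordered within each role. The dotted line is the median of all tested genes and the dashed lines mark 1.5-fold. Points run from EDEM1 at -2.35 to DNAJC10 at 2.18.

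The genes of the sensors split. ERN1, which encodes IRE1, was at 828, 796 and 769 normalized units with insulin and at 266, 256 and 266 with Torin1. EIF2AK3, which encodes PERK, was at 880, 949 and 858 with insulin and at 341, 360 and 312 with Torin1. Both fell in every library, by 1.60 and 1.41 on the log2 scale, to 32.9% and 37.7% of the insulin mean. ATF6 went the other way, from 731, 667 and 737 units to 1238, 1180 and 1160. Its rise of 0.75 on the log2 scale (SE 0.0501, limma adjusted p = 2.1e-12, n = 3 each) was beyond 1.5-fold. The related gene ATF6B rose by less, from 1053 ± 14.2 to 1228 ± 12.1 units (mean ± SD, n = 3 each), at a log2 fold change of 0.22, or 0.35 with scaling to equal totals and 0.41 with quantile normalization.

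XBP1, the target of IRE1, was at 5318, 5071 and 5158 units with insulin and at 1287, 1319 and 1344 with Torin1. The groups were far apart, and the level with Torin1 was 25.4% of that with insulin, at a log2 fold change of -1.98 (SE 0.0351, limma adjusted p = 7.6e-23, n = 3 each). Of all tested genes, 4.59% changed by a more negative value than XBP1. Values per gene do not separate spliced from unspliced XBP1 mRNA. CREB3L2, which encodes a transcription factor anchored in the ER membrane, fell from 1397 ± 79.0 to 725.7 ± 47.2 units, at a log2 fold change of -0.94.

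Among the lumenal chaperones and their partners 10 of 12 fell and DNAJC10 rose, and the median log2 fold change was -1.32. Of all tested genes 42.5% were called lower and 43.4% higher. HSPA5, the gene of BiP, was at 5725, 5829 and 5945 units with insulin and at 3295, 3105 and 3205 with Torin1. It fell to 54.9% of the insulin mean, at a log2 fold change of -0.87 (SE 0.0327, limma adjusted p = 4e-17, n = 3 each). HYOU1 and SDF2L1, which encode partners of BiP and its J proteins, also fell. HYOU1, which encodes a nucleotide exchange factor of BiP, was at 2394, 2304 and 2397 units with insulin and 964, 935 and 996 with Torin1, a change of -1.29 on the log2 scale. SDF2L1, whose product works with the J protein of DNAJB11, was at 479, 523 and 512 and then at 172, 174 and 205, a change of -1.46.

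MANF and CRELD2 encode small proteins of the ER that are induced by stress and can be secreted. MANF was at 2830, 3076 and 2981 units with insulin and at 984, 934 and 957 with Torin1, and CRELD2 at 1250, 1310 and 1147 and then at 435, 404 and 401. Neither gene's groups overlapped, and the changes were -1.63 and -1.58 on the log2 scale, to 32.4% and 33.5% of the insulin mean.

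J proteins hand unfolded chains to BiP and stimulate its ATPase. Of the 4 J protein genes, DNAJB9 fell from 1219 ± 98.5 to 346 ± 17.1 units, DNAJC3 from 2103 ± 8.72 to 776.3 ± 46.2, and DNAJB11 from 2594 ± 83.9 to 1016 ± 51.9 (n = 3 each). Their log2 fold changes were -1.81, -1.44 and -1.35. DNAJC10, whose product ERdj5 joins a J domain to thioredoxin domains and reduces disulfide bonds in clients bound for degradation, was at 545, 571 and 583 units with insulin. With Torin1 it was at 2596, 2558 and 2578, all far above the insulin libraries. This is 4.55 times the insulin level, at a log2 fold change of 2.18 (SE 0.0425, limma adjusted p = 3.2e-22), and 94.6% of tested genes lay below it.

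The most abundant chaperone genes had values nearer to 0. HSP90B1, which encodes GRP94, was at 11323, 11618 and 12222 units with insulin and at 11993, 11605 and 11519 with Torin1. The groups overlapped, and the log2 fold change of -0.00138 was not called (limma adjusted p = 0.97), although with scaling to equal totals it was called at 0.12 and with quantile normalization at -0.12. CALR and CANX encode the lectin chaperones calreticulin and calnexin, which hold glycoproteins while they fold. CALR was at 11468, 11344 and 10828 units and fell to 6931, 6880 and 6966, which is 61.8% of the insulin mean. CANX, at 16396, 16277 and 16508 units, fell to 13625, 13793 and 13276, which is 82.7%. The log2 fold change of CANX was -0.27, or -0.15 with scaling to equal totals and -0.51 with quantile normalization.

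All 4 disulfide isomerase genes fell, where 42.5% of all tested genes were called lower. A fall beyond 1.5-fold was called for 1 of the 4, near the share of 22.5% over all tested genes. P4HB, which encodes PDI itself, was at 6986, 6747 and 6209 units with insulin and at 3177, 3123 and 3311 with Torin1, at a log2 fold change of -1.05 (SE 0.0383, limma adjusted p = 2.1e-17). PDIA3, PDIA6 and PDIA4 had log2 fold changes of -0.50, -0.48 and -0.40, which with quantile normalization were -0.19, -0.17 and -0.0891 and still called. PDIA3, the partner of the lectin chaperones, fell from 3037 ± 105 to 2150 ± 46.6 units, PDIA4 from 3222 ± 105 to 2436 ± 16.5, and PDIA6 from 3811 ± 92.9 to 2723 ± 81.6 (n = 3 each). In each of the 4 genes all Torin1 libraries lay below all insulin libraries, as they did in 42.8% of all tested genes.

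In ER-associated degradation 7 of 9 genes fell, 1 rose and 1 was not called. The shares over all tested genes were 42.5% lower and 43.4% higher. HERPUD1, whose product organizes the ubiquitin ligase complex at the ER membrane, was at 3067, 2835 and 2987 units with insulin and at 589, 614 and 575 with Torin1. EDEM1, which encodes a protein that recognizes misfolded glycoproteins, was at 3580, 3596 and 3447 and then at 701, 691 and 684. These were the lowest log2 fold changes of the 35 genes, -2.32 (SE 0.0436, limma adjusted p = 1.9e-22) and -2.35 (SE 0.0388, limma adjusted p = 2.4e-23), and left 20.0% and 19.5% of the insulin level.

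Paralogs within this group had unlike values. EDEM2 went from 290.7 ± 17.9 to 207.3 ± 18.0 units and EDEM3 from 1613 ± 44.5 to 921.3 ± 4.51 (n = 3 each), log2 fold changes of -0.49 (-0.74 with quantile normalization) and -0.81. The derlins form part of the channel through which proteins leave the ER. DERL2 fell from 1214 ± 25.0 to 605.7 ± 9.71 units, DERL3 rose from 678.3 ± 31.5 to 800.7 ± 20.8, and DERL1 was at 833, 808 and 889 units with insulin and 928, 893 and 871 with Torin1. The log2 fold change of DERL3 was 0.24, or 0.37 with scaling to equal totals. The DERL1 groups overlapped, and its log2 fold change of 0.09 was not called (limma adjusted p = 0.096). It was called higher at 0.22 with scaling to equal totals, at 0.20 with quantile normalization and at 0.13 without insulin replicate 3, and was 0.0598 and not called without insulin replicate 2. SYVN1 and SEL1L encode the ubiquitin ligase HRD1 and its partner, and fell by 0.65 and 0.74 on the log2 scale, SEL1L by 0.45 with quantile normalization. SYVN1 went from 1231 ± 77.5 to 785 ± 75.2 units (n = 3 each), and SEL1L was at 2660, 2717 and 2782 units with insulin and at 1611, 1673 and 1610 with Torin1. The fall of SYVN1 was not called beyond 1.5-fold (limma treat adjusted p = 0.26), and that of SEL1L was (limma treat adjusted p = 0.00055).

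At the membrane, WFS1, mutated in Wolfram syndrome, was at 1129, 1219 and 1082 units with insulin and at 254, 271 and 308 with Torin1. This fall of 2.04 on the log2 scale (SE 0.0677, limma adjusted p = 3.5e-18) left 24.3% of the insulin level. The gene body of WFS1 (chromosome 4, 6269850 to 6303265, hg38, plus strand) also held 28 m6A sites on the minus strand with insulin, between 6298547 and 6303198. With Torin1 there were 2. On the plus strand there were 9 and 5. Whether the authors counted reads by strand is not given in the sources used here, so whether the value of WFS1 includes reads from the opposite strand cannot be told.

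SEC24D, which encodes a cargo-binding subunit of the vesicle coat COPII, fell from 816.3 ± 83.7 to 362.7 ± 10.8 units, at a log2 fold change of -1.16. The translocon genes went in opposite directions. SEC61A1, the gene of the channel subunit, fell from 3396 ± 61.6 to 2668 ± 40.1, at a log2 fold change of -0.35, which was -0.22 with scaling to equal totals and -0.04, not called, with quantile normalization. SEC61B, the gene of a small subunit, rose from 441, 432 and 550 to 628, 615 and 593 units, at a log2 fold change of 0.38 (SE 0.0734, limma adjusted p = 6e-05). The lowest Torin1 library lay above the highest insulin library by less than the range of the insulin libraries.

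**Figure D3:**
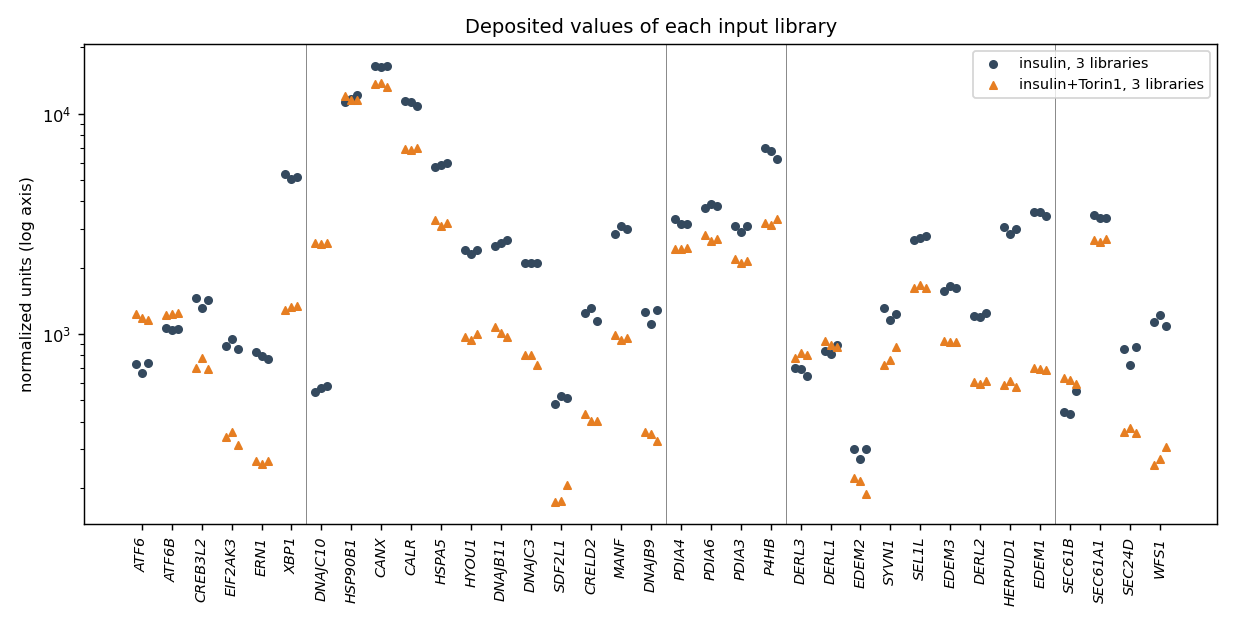
Deposited value of each of the 35 genes in each input library, in normalized units on a log axis. Circles are the 3 insulin libraries and triangles the 3 insulin+Torin1 libraries, and vertical lines separate the roles. The groups overlap in HSP90B1 and DERL1 and are apart in the other 33 genes. They are also apart in 11945 of all 13842 tested genes.

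The changes of genes with and without an ER stress element are given side by side. Of the 10 members with an exact ERSE or ERSE-II, 9 fell and HSP90B1 was not called, and the median log2 fold change was -1.08. Of the 21 members with a window but neither element, 17 fell and 4 rose, with a median of -0.94. Among other tested genes with an exact element, 11 of 21 fell and 9 rose, with a median of -0.255. Of all tested genes 42.5% were called lower and 43.4% higher, with a median of 0.02. The core of the UPR element, TGACGTGG on either strand, was in the windows of HYOU1 and DNAJC10 and in 0.927% of all genes. In HYOU1 it shares 5 bases with the distal ERSE-II, and in DNAJC10 it lies at -125 to -118. The ATF4-type element TGATGNAA, also on either strand, was in those of CREB3L2 and HERPUD1 and in 4.46% of all genes.

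Other genes of the ER and of the stress pathways were taken from 9 lists, whose counts are to be read against the 42.5% of all tested genes called lower and the 43.4% called higher. In the PERK and integrated stress list 12 of 13 tested genes fell and 1, the kinase gene EIF2AK4, rose, while quantile normalization called 11 lower and 2 higher. The median log2 fold change was -1.77. TRIB3, which encodes a pseudokinase, was at -3.10, CEBPB, a transcription factor gene, at -2.80, and DDIT3, which encodes the stress factor CHOP, at -2.72. The list of IRE1 and ATF6 partners also holds other transcription factor genes, such as CREB3L4. In this list 9 of 12 tested genes rose and 3 fell, with a median of 0.53. MBTPS1 and MBTPS2 encode the proteases that cut ATF6 in the Golgi. MBTPS2 rose from 301, 303 and 324 units to 1647, 1747 and 1708, at a log2 fold change of 2.46 (SE 0.0518, limma adjusted p = 1.2e-21), and MBTPS1 was at 1.28. CREB3L4, of the same family as CREB3L2, was at 1.93. In the same list and family CREB3 fell, at -1.15, and so did CREB3L1, at -0.99 and no more than 43 units.

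Of 21 other degradation genes 14 fell and 5 rose, with a median of -0.59, where the median of all tested genes was 0.02. FAF2 and UFD1L, whose products work with the segregase VCP to extract proteins from the ER, were at -1.87 and -1.82, while AUP1 was at 1.88. For the translocon and signal peptidase list, 14 of 22 fell and 7 rose at a median of -0.32, but with quantile normalization 9 were called lower. Its largest changes were SRP68 at 1.29, SRPR at -1.21 and SRP54 at -1.12, all of the pathway that brings ribosomes to the ER.

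Each remaining list held genes called in both directions, where 42.5% of all tested genes were called lower and 43.4% higher. The COPII list was near these shares in both directions, and the other lists below lay only a few genes from them. Of 17 other disulfide and oxidative folding genes 10 rose and 5 fell, with the isomerase gene PDIA5 at 2.02, TXNDC16 at -1.31 and TMX4 at 0.88. Of 22 genes for glycoprotein folding and prolyl isomerases 11 rose and 8 fell, with FKBP2 at -2.49, FKBP10 at 1.93 and FKBP9 at 1.66. In the oligosaccharyltransferase, the enzyme that adds glycans to new chains, 6 of 12 rose and 4 fell, or 2 with quantile normalization, with TMEM258 at 1.19, TUSC3 at 1.14 and OSTC at 0.88. Of 17 genes for the COPII coat and ER exit 8 fell and 7 rose, with SEC24A at -1.56, the retrieval receptor gene KDELR3 at 1.42 and SEC16A at -0.84 (-0.53 with quantile normalization). Of 15 ER calcium and ER-phagy genes 8 rose and 6 fell, with the calcium channel gene ITPR1 at 1.80, SEPN1 at 1.60 and the ER-phagy receptor gene FAM134B at 1.19.

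**Figure D4:**
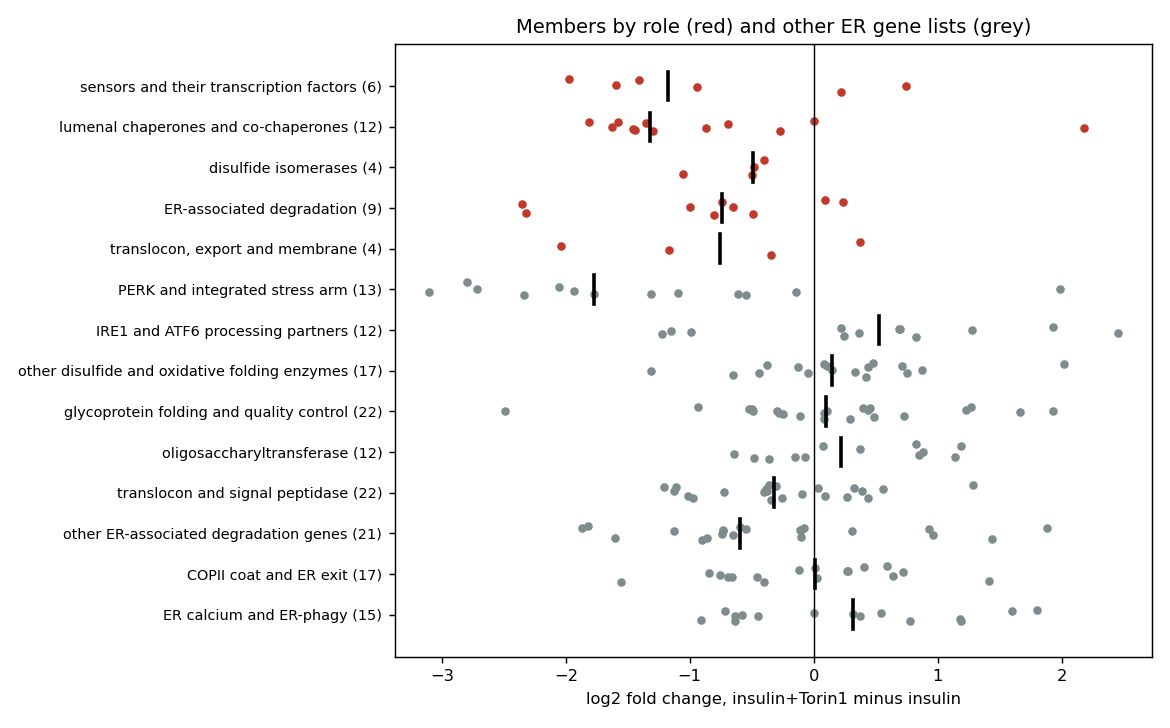
Log2 fold change (insulin+Torin1 minus insulin) of each tested gene, for the 35 genes by role in red and for 9 other ER and stress gene lists in grey, with the number of genes in brackets. Black bars are medians, which run from -1.77 in the PERK and integrated stress list to 0.53 in the list of IRE1 and ATF6 partners. Points are spread vertically at random for legibility.

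The m6A lists give 1 set of sites per treatment, each position under 1 replicate, so the numbers of sites have no replicate test. In the bodies of the 35 genes, on the strand of the gene, lay 359 sites in the insulin list and 203 in the Torin1 list. At least 1 site was listed in 32 genes (91.4%) with insulin and in 30 (85.7%) with Torin1, against 79.1% and 77.0% of 10413 tested protein-coding genes. These coding genes were not matched to the 35 by mRNA level. They were limited to genes whose strand was given with the RefSeq windows, whereas PDIA3, DERL1 and SEC24D took it from their own sites. Replicate 2 held 133 and 5 sites, while replicate 1 had 205 and 179 and replicate 3 had 21 and 19. The whole lists had the same feature, with 39670 insulin and 1552 Torin1 sites under replicate 2. Torin1 sites under replicate 1 were thus 87.3% of insulin sites, against 110% over the tested coding genes. The number of sites that can be found depends on the reads of a transcript, and the part of the lower mRNA levels in these numbers was not tested.

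**Figure D5:**
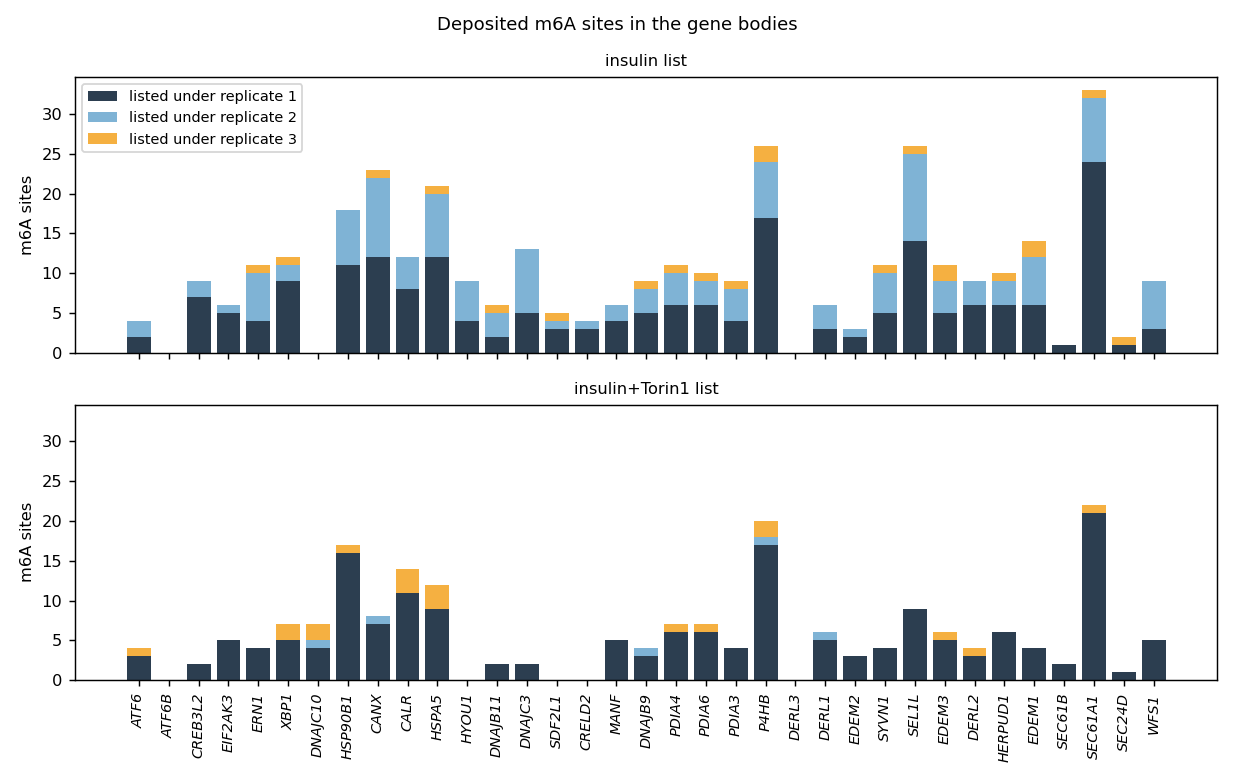
Number of deposited m6A sites in the body of each of the 35 genes, on the strand of the gene, in the insulin list (top) and the insulin+Torin1 list (bottom). Colours give the replicate under which a site is listed. Sites of replicate 2 number 133 in the top panel and 5 in the bottom panel. SEC61A1 has the most in both, 33 and 22.

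Under replicate 1, 14 of the 35 genes (40%) had fewer sites with Torin1, 9 (25.7%) had more and 12 the same number. Over the tested coding genes 27.7% had fewer and 43.1% more. SEC61A1 held 24 and 21 sites under replicate 1 (33 and 22 in the full lists), and P4HB 17 and 17 (26 and 20). SEL1L had 14 and 9 (26 and 9), CANX 12 and 7 (23 and 8), and HSPA5 12 and 9 (21 and 12). HSP90B1 and CALR had more sites with Torin1 under replicate 1, with 11 and 16 for HSP90B1 (18 and 17 in the full lists) and 8 and 11 for CALR (12 and 14).

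By role, sites under replicate 1 numbered 27 and 19 in the sensor group, 69 and 59 in the chaperones, 33 and 33 in the isomerases, 47 and 39 in degradation, and 29 and 29 at the translocon and membrane.

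Of the 35 genes 3 (8.57%) had sites in the insulin list and none at all in the Torin1 list, against 9.44% of tested coding genes. The reverse held for 1 gene (2.86%), against 7.34%. These shares are at or below those of all tested coding genes. DNAJC10, whose mRNA rose, had 0 sites with insulin and 7 with Torin1, of which 4 were under replicate 1. HYOU1, SDF2L1 and CRELD2, whose mRNA fell, had 9, 5 and 4 sites with insulin and 0 with Torin1, of which 4, 3 and 3 were under replicate 1. XBP1 had 12 sites with insulin and 7 with Torin1, all no more than 2000 nt from where the annotated gene ends, and 6 positions were in both lists. ERN1 had 11 and 4 sites, but 4 and 4 under replicate 1. HERPUD1 had 10 and 6, and 6 and 6 under replicate 1. EDEM1 had 14 and 4, and DNAJC3 13 and 2, with 6 and 4 and 5 and 2 of them under replicate 1. DERL3 had 0 sites in both lists, and whether the lists cover its surroundings was not checked. ATF6B also had 0, and the lists used here hold 0 positions within 100000 nt of it on either side. Whether ATF6B lacks sites can therefore not be told. DERL3 and ATF6B are still counted among the 35 genes, and among the 12 with the same number under replicate 1. The 3 sites of EDEM2 in each list also lie in the read-through gene MMP24-AS1-EDEM2.

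The positions of the sites were compared with those in other genes. Of the sites in the 35 genes 119 positions were in both lists, which is 33.1% of the insulin sites and 58.6% of the Torin1 sites, against 30.9% and 46.5% over the tested coding genes. No more than 2000 nt from the gene end lay 43.7% of insulin and 47.3% of Torin1 sites, against 32.4% and 33.7%. This distance runs along the genome, so the share depends on gene length, for which the genes were not matched. The whole body of SDF2L1, 1998 nt long, lies within it. The 4-mer GGAC opened 25.6% and 29.6% of the 5-mers, against 30.9% and 32.8%. The 5-mer listed most often was ggAct, with the capital marking the methylated base, at 36 insulin and 28 Torin1 sites.

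The 3 sites of each list with the most substituted reads, with ties broken by the number of reads, lay near the ends of CALR, P4HB and SEC61A1, and all were in both lists. In CALR (chromosome 19, 12938609 to 12944489, hg38) the site at 12943936 in ggAct had 43 of 528 reads substituted with insulin, 8.14% (Wilson 95% interval 6.10% to 10.8%). With Torin1 it had 44 of 761, 5.78% (4.34% to 7.67%), so the intervals overlap. In P4HB (chromosome 17, 81843166 to 81860535) the site at 81843549 in ggAca had 19 of 252 reads (7.54%, 4.88% to 11.5%) and 28 of 418 (6.70%, 4.67% to 9.51%). Close by, 81843554 in ggAct had 13 of 221 reads with insulin and 11 of 381 with Torin1. In SEC61A1 (chromosome 3, 128051641 to 128071683) position 128070623 in ggAct had 9 of 97 reads with insulin and 17 of 170 with Torin1. All these reads are from replicate 1, so the intervals compare 2 libraries and cover counting error only. In XBP1, position 28795257 of chromosome 22 in tgAca tied with the third site of the insulin list, with 13 of 79 reads from replicate 1 (16.5%, 9.88% to 26.1%), and the Torin1 list gives 1 of 5 reads there, from replicate 3.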

How the data were processed

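The authors deposited 1 expression table of the 6 input libraries and 1 m6A site list per treatment; the submitters' processing notes list STAR, BWA 0.7.1, DESeq and DESeq2 1.22.2 with the build hg38, and do not say which served what. The table's values are used as a score: low values lie on a regular grid, so the deposited numbers are normalized between libraries and rounded, and no count test was run. The deposited value of a site is a fraction, substituted reads over all reads.

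Expression was tested on the whole table with limma 3.58.1 in R 4.3.3, two-sided, on log2(value + 1) with a variance trend, keeping genes that reached 10 in 3 or more libraries. On this scale low genes show too small a fold change. P-values were adjusted by Benjamini and Hochberg over all tested genes and called below 0.05, and limma's treat asked for changes beyond 1.5-fold. The procedure was tested on simulated data. Sites were assigned to RefSeq gene bodies (GRCh38.p14), with the strand from the promoter table, or from most of a gene's sites for PDIA3, DERL1 and SEC24D. The genes and the other ER lists were chosen with earlier results of these data known. All 35 genes are named, up to 3 called genes per other list with the largest change and no overlap between groups, the 5 genes with the most sites in either list, and the 3 sites with the most substituted reads. EIF2AK4, CREB3, CREB3L1, the XBP1 site, WFS1's opposite strand and the genes with sites under 1 treatment were singled out after their values were seen.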

Additional observations from a re-analysis of the deposited data

How the results depend on the processing

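Of 35 genes, 32 kept their direction and side of the threshold under all 12 expression alternatives, and HSP90B1, DERL1 and SEC61A1 did not. For the other lists these alternatives were added after seeing the data. HSP90B1 was above 0 with scaling to equal totals (0.12, limma adjusted p = 0.0007) and, not called, without insulin replicate 3 (0.0292) or Torin1 replicate 2 (0.00474) or 3 (0.0101); with 1 library left out its log2 fold change ran from -0.0259 to 0.0292. The median log2 fold change of the 35 genes was -0.74 with scaling to equal totals and -0.74 with quantile normalization, and -0.89 to -0.84 with 1 library left out. Scaling to equal totals moved the median of all tested genes by 0.128. It called 28 of the 35 lower, 7 higher and 19 lower beyond 1.5-fold, and quantile normalization 28, 6 and 18. Same-numbered input libraries did not deviate together (r = -0.02, 0.01 and -0.00), and neither did pairs with unlike numbers (r from -0.02 to 0.02). Whether same-numbered libraries shared a culture or a batch cannot be told from these values. The replicate block called 11850 rather than 11898 genes and 28 and 5 of the 35. The 359 insulin sites became 205 under replicate 1, 63 with 3 or more substituted reads, and 154 to 338 with 1 replicate left out. The 203 Torin1 sites became 179, 54, and 24 to 198, so without replicate 1 few of them are left. Leaving out a replicate also drops positions that other replicates may have found. With 1 mismatch allowed, 14 rather than 7 genes held ERSE (1.89% of all genes) and 7 rather than 3 held ERSE-II (1.46%). The cause of the other changes was not tested.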

Other observations

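The body of WFS1 held more m6A sites on the strand opposite to the gene than on its own in the insulin list. Of the 28 sites in the insulin list, 20 were under replicate 1 and 8 under replicate 2, with 2 to 39 reads over a site (median 16) and 46 substituted reads in all. A further 3 lay past the annotated end of WFS1, up to position 6303807 of chromosome 4. The 9 plus-strand sites of WFS1 had 3 to 35 reads (median 5). With Torin1 the 2 minus-strand sites had 1 read each, and the 5 plus-strand sites had 12 to 41 reads (median 24). Over the other 34 genes together, the insulin list held 9 sites on the opposite strand, at most 3 in 1 gene.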
